A study of Mus musculus with 14 samples.

Results

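The cells described here are the cycling progenitors among neural stem cells taken fresh from the subventricular zone, the germinal layer along the lateral ventricles, of adult mice. A cell was counted as cycling when it held 2 or more raw counts over 8 cell cycle genes (Top2a, Mki67, Rrm2, Pcna, Mcm6, Ube2c, Pclaf and Hmgb2). That sum also had to exceed the cell's sum over 6 astrocyte genes (Slc1a2, Aldoc, Clu, Gja1, Aqp4 and Ntsr2) and its sum over 4 neuroblast genes (Dcx, Sp8, Sp9 and Stmn2). Of 4088 fresh cells 478 met the rule, 282 of 1879 in the Aplp1 KO library and 196 of 2209 in the wildtype library. The rule read the counts of these same cells, so its 18 genes and every difference between cycling and other fresh cells are descriptions with no test.

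The study asked where transcripts end in active and quiescent neural stem cells and in Aplp1-/- and wildtype cells, and which mRNAs CPEB4 binds. The mutant genotype was APLP1-/-, which lacks a member of the amyloid precursor protein family, and its control was wildtype; both groups were adult and untreated, and the labels give neither strain nor exact age. Each genotype was 1 droplet library (10x Genomics, oligo(dT) capture) of cells marked by 3 hash tag antibodies against MHC class I and CD45; each tag is taken here as 1 mouse, which the labels do not state. The cultures used further on were neural stem cells kept for 3 days with EGF, a mitogen, or with BMP4, a signal used to hold such cells in quiescence, again 1 library each. With 1 library per genotype, genotype and library cannot be told apart, and the 95% intervals given throughout are exact and cover counting error only.

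Cycling cells held a median of 1024.5 counts and 499.5 genes in the Aplp1 KO library and 957 counts and 453 genes in the wildtype library. All other fresh cells held 383 counts and 202 genes in the Aplp1 KO library and 342 counts and 184 genes in the wildtype library, so the cycling cells were 2.67 and 2.80 times as deep. Doublets and free RNA were not removed, and 13 barcodes occurred in both libraries, among them those of 6 cycling cells. Counts of Aplp1 did not reach 0 in the library labelled knockout, where they stood at 2.59 CPM (counts per 1000000 counts of the class; 1 count) in cycling cells and 62.9 CPM in other cells, against 21.6 CPM (5 counts) in cycling cells and 267 CPM in other cells of the wildtype library. Among mouse-assigned cells of the knockout library, the mouse of tag 2 stood at 94.0 CPM of Aplp1 (7 counts, 37.8 to 194), while those of tags 1 and 3 had 0 counts, with upper limits of 57.5 and 53.5 CPM. The wildtype mice stood at 101 (27.5 to 258), 228 and 218 CPM. The interval of tag 2 overlapped that of the lowest wildtype mouse as well as the limits of the other knockout mice. Other cells of the knockout library held 53 Aplp1 counts, so most came from cells with no assigned mouse. Whether the label of the tag 2 mouse is right was not tested, and 7 counts cannot tell. The labels do not name the deleted part of the gene; Aplp1 KO names that library, and its mice, by the label throughout.

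In the adult subventricular zone, quiescent stem cells share much of their expression with astrocytes; once activated they give rise to fast dividing, transit-amplifying progenitors marked by Egfr and Dlx genes, which become Dcx-positive neuroblasts that migrate to the olfactory bulb. Dividing cells use a succession of programmes: E2F factors switch on genes for DNA replication before S phase, and the MuvB complex with B-MYB and FOXM1 switches on genes for chromosome segregation before mitosis. Many promoters of the mitotic programme carry a CHR element, read by MuvB, and CCAAT boxes, read by NF-Y.

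The 8 cycle genes that defined the cells were unevenly spread among them. Members held a median of 6 cycle counts in each library, with a maximum of 39 in the Aplp1 KO library and 25 in the wildtype library. No member held all 8 genes; 162 of 282 Aplp1 KO and 110 of 196 wildtype members held 3 or more of them, and 43 and 27 held 1 gene. Hmgb2, a chromatin protein, was found in 55.7% and 49.0% of members, Rrm2, a subunit of ribonucleotide reductase, in 53.5% and 51.02%, and Top2a, the topoisomerase that untangles replicated chromosomes, in 51.8% and 46.9%. Mki67, the usual antigen of proliferating cells, was sparse, with a count in 14.9% of Aplp1 KO members and 10.7% of wildtype members. To see each gene in cells it did not choose, the rule was applied 8 times with 1 cycle gene left out. Cells chosen by the other 7 genes then had more of the omitted gene than the rest, from 2.12-fold for Hmgb2 to 7.03-fold for Ube2c in the Aplp1 KO library, and from 3.37-fold for Hmgb2 to 7.14-fold for Top2a in the wildtype library. The median member had 1 count of the astrocyte genes and 0 counts of the neuroblast genes in each library.

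The cut at 2 counts did not fall at a gap in the data. Exactly 2 cycle counts were held by 45 Aplp1 KO and 32 wildtype members, and 55 and 35 cells stood just outside with 1 cycle count and no lineage count. In the cells just inside, S phase genes outside the rule summed to 3077 CPM (2451 to 3815) in the Aplp1 KO library and 3470 CPM (2710 to 4377) in the wildtype library. In the cells just outside they summed to 3589 CPM (2900 to 4392) and 3535 CPM (2640 to 4636), which overlaps the level inside. Cells with 0 cycle counts, taken whatever their lineage counts, stood at 730 and 742 CPM. The step from 0 to 1 count is therefore also a step in the lineage condition. G2/M genes outside the rule stood at 6710 CPM (5768 to 7762) and 7331 CPM (6205 to 8603) at 2 counts, 5459 CPM (4601 to 6431) and 5643 CPM (4494 to 6995) at 1 count, where the intervals overlap those at 2 counts, and 1814 and 1510 CPM at 0 counts. A further 91 Aplp1 KO and 82 wildtype cells had 2 or more cycle counts and were left out because a lineage sum was as large. Their G2/M genes stood at 9672 and 8020 CPM, within the range of the members. Their S phase genes stood at 2085 CPM (1833 to 2361) and 2690 CPM (2375 to 3036), below the levels of members with 2, 3 and 4 or more cycle counts, although the wildtype interval overlaps that of members with 2.

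**Figure D1:**
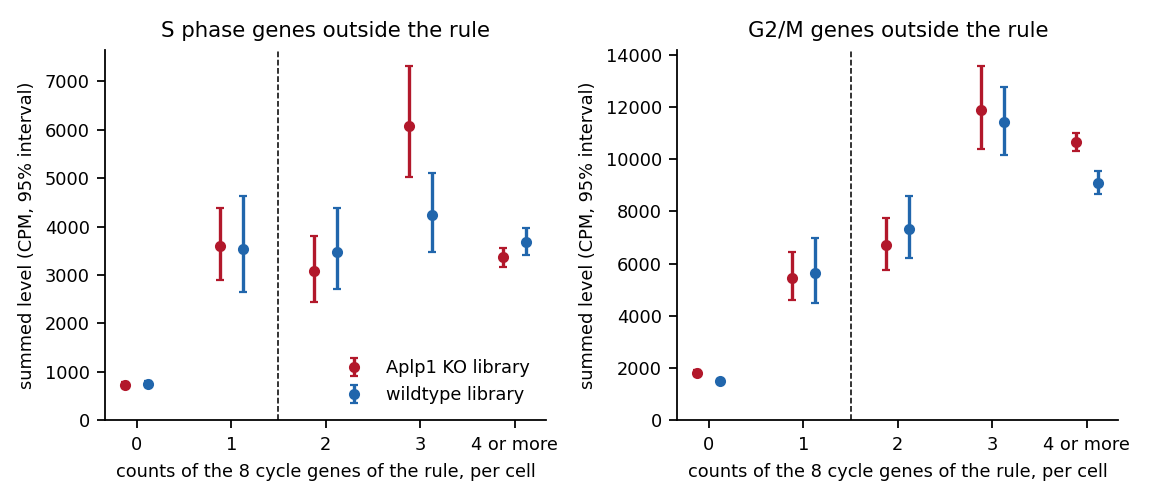
Summed level of S phase genes (left) and G2/M genes (right) outside the rule, in CPM, for fresh cells with 0, 1, 2, 3 and 4 or more counts of the 8 cycle genes, with bars for the exact 95% Poisson interval and a dashed line at the cut. Cells with 1 or more cycle counts are those whose cycle sum exceeded both lineage sums, while cells with 0 counts were taken whatever their lineage sums. Both gene groups stand far lower at 0 counts than at 1 count, and cells at 1 and 2 counts lie close together.

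Outside the rule, 5589 genes had 20 or more counts in each library and were compared by summed CPM of cycling and all other cells. Of these, 294 (5.26%) were 2-fold or more higher in cycling cells in both libraries and 843 (15.1%) were 2-fold or more lower in both. The median log2 ratio was -0.15 in the Aplp1 KO library and -0.12 in the wildtype library, and the ratios of the libraries correlated across genes at r = 0.67, where genes are not independent and the rule was the same in both. Since cycling cells are the deeper ones, the comparison was repeated among cells with 500 or more counts, chosen after seeing the data, and 187 of 3972 genes (4.71%) were then higher and 413 (10.4%) lower.

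The 20 genes that stood highest in both libraries were mostly parts of the machinery of replication and mitosis. Uhrf1, which brings DNA methylation back onto newly copied strands, reached 417 CPM in cycling cells against 65.3 CPM in other cells of the Aplp1 KO library, and 467 against 64.3 CPM in the wildtype library. These are ratios of 6.39 (4.68 to 8.85) and 7.27 (5.24 to 10.2). Nusap1, a microtubule binder of the spindle, stood at 713 against 119 CPM in the Aplp1 KO library and 541 against 111 CPM in the wildtype library. It was found in 93 of 282 and 55 of 196 members, so its level did not come from a few cells. Ccna2, the cyclin of S and G2 phase, stood at 311 against 62.9 CPM in the Aplp1 KO library and 350 against 48.8 CPM in the wildtype library.

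A group of kinetochore and checkpoint genes stood with them. Knl1, the scaffold of the outer kinetochore, was 7.56-fold (4.01 to 15.3) and 6.51-fold (3.30 to 13.3) higher in cycling cells of the Aplp1 KO and wildtype libraries. Spc25, a subunit of the NDC80 complex that holds microtubules, was 5.13-fold and 7.81-fold higher, Bub3, of the spindle checkpoint, 4.75-fold and 4.84-fold, and Cenpf, a large kinetochore protein, 4.76-fold and 15.3-fold. Plk1, the mitotic kinase, rested on 21 counts in cycling cells of each library and was 5.09-fold (2.24 to 12.6) and 20.5-fold (6.91 to 82.1) higher. The chromosomal passenger complex was represented by its kinase Aurkb, 6.55-fold and 7.45-fold higher, and its scaffold Incenp, 7.28-fold and 5.02-fold higher.

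Spindle motors and cytokinesis genes followed. Kif11, the kinesin that pushes spindle poles apart, was 5.00-fold and 8.71-fold higher in cycling cells of the Aplp1 KO and wildtype libraries, and Kif15, which shares that task, 6.36-fold and 7.16-fold. Racgap1, of the centralspindlin complex of cytokinesis, stood at 366 against 70.1 CPM in the Aplp1 KO library and 277 against 53.2 CPM in the wildtype library, a ratio of 5.22 and 5.20. Tacc3 and Ckap2, which stabilise spindle microtubules, were 5.77-fold and 4.66-fold higher in the Aplp1 KO library and 11.2-fold and 17.6-fold higher in the wildtype library, the wildtype values over 7 and 4 counts in other cells.

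A further 5 of the 20 are not spindle or kinetochore genes. Mthfd2, a mitochondrial enzyme of folate metabolism that feeds nucleotide synthesis, had the largest ratio common to both libraries, 174 against 24.9 CPM (6.97-fold, 4.21 to 12.0) in the Aplp1 KO library and 216 against 18.8 CPM (11.5-fold, 6.51 to 21.2) in the wildtype library. Its 67 and 50 counts came from 33 and 19 cells. Cdkn2c, an inhibitor of the kinases Cdk4 and Cdk6, was 7.86-fold and 6.74-fold higher. Skp2, which marks the inhibitor p27 for degradation, was 5.46-fold and 8.24-fold higher. Rtkn2 stood at 602 against 124 CPM in the Aplp1 KO library and 385 against 79.8 CPM in the wildtype library, from 54 and 23 cells. Cmc2, a mitochondrial protein, was 4.61-fold and 5.58-fold higher.

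**Figure D2:**
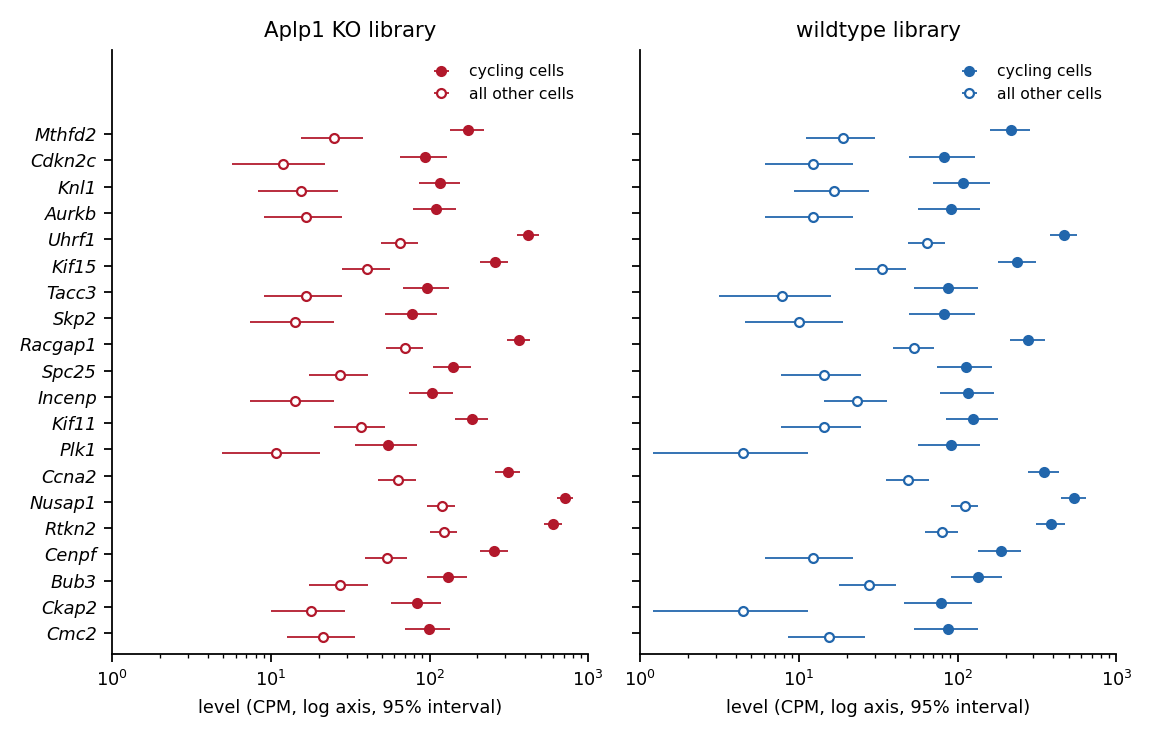
Level of the 20 genes outside the rule with the highest ratio common to both libraries, in cycling cells (filled) and all other cells (open), in CPM on a log axis with exact 95% Poisson intervals; the Aplp1 KO library is on the left and the wildtype library on the right. In each library the interval of the cycling cells lies above that of the other cells for every one of these genes, which were chosen for that difference.

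Promoter sequences, from RefSeq on GRCm38.p6 (the mm10 build), were read for the 250 bases before each start and searched on both strands for CHR (TTTGAA or TTCGAA), for the CCAAT box (CCAAT) and for E2F-like sites (TTTGGCGC, TTTCCCGC or TTTCGCGC). All 8 cycle genes and 16 of the 20 genes above had a promoter; Aurkb, Incenp, Ccna2 and Rtkn2 had none in the table. Shown are 8 of the windows found, to let the motifs of the replication and mitosis programmes be seen near the starts of genes described here; each is written along the gene, with the motif in capitals.
Top2a CHR, chr11:99024195-99024224, minus strand: gctagataaaggTTCAAAtgaaactaggga
Ube2c CHR, chr2:164769888-164769917, plus strand: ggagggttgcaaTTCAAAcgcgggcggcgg
Kif11 CHR, chr19:37376351-37376380, plus strand: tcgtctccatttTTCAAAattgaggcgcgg
Kif15 CHR, chr9:122951050-122951079, plus strand: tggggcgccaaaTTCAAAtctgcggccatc
Plk1 CCAAT, chr7:122159405-122159434, plus strand: ttttaaatccccgcggCCAATcagcaacgc
Racgap1 CCAAT, chr15:99651657-99651686, minus strand: attatgagctcctctgtgATTGGctggtgc
Uhrf1 CCAAT, chr17:56303295-56303324, plus strand: ccacagcgccagCCAATcaggaatcaagag
Mcm6 E2F, chr1:128359734-128359763, minus strand: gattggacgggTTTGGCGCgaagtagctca

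In Top2a, Ube2c, Kif11 and Kif15 the CHR ended 17, 23, 13 and 13 bases before the start, and in each it was read as TTCAAA, the reverse complement of TTTGAA. In Kif15 an E2F-like site directly adjoined the CHR. A CCAAT box was found in 8 of 8 cycle genes of the rule, 10 of the 16 named genes (62.5%), 20 of 24 G2/M genes that were 2-fold or more higher (83.3%) and 121 of 236 of all genes 2-fold or more higher (51.3%), beside 37.5% of 27025 RefSeq genes and 41.2% of the 4351 genes compared here that had a promoter. CHR was found in 4 of 8, 5 of 16, 10 of 24 and 55 of 236 genes of these groups, beside 19.6% of RefSeq genes and 14.0% of genes compared. E2F-like sites were found in 1 of 8, 2 of 16, 0 of 24 and 30 of 236 genes, beside 1.78% of RefSeq genes and 4.21% of genes compared. The 16 S phase genes 2-fold or more higher that had a promoter held a CCAAT box in 11, CHR in 3 and an E2F-like site in 4. Genes had a mean of 1.00 to 1.25 windows in these groups, 1.22 over RefSeq and 1.30 over genes compared. Only letters were matched, and no binding was measured.

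Genes of DNA replication stood higher in cycling cells as a group. Of 25 S phase genes outside the rule that were compared, 21 were 2-fold or more higher in both libraries and 0 lower, with a median log2 ratio of 1.59 in the Aplp1 KO library and 1.78 in the wildtype library, against the 5.26% of all genes called higher. Rrm1, the partner of Rrm2 in making deoxynucleotides, stood at 119 against 27.3 CPM in the Aplp1 KO library and 151 against 19.95 CPM in the wildtype library. The helicase subunits Mcm2, Mcm3, Mcm4, Mcm5 and Mcm7 were all among the 21, from 2.18-fold for Mcm4 to 3.78-fold for Mcm7 in the Aplp1 KO library and from 2.29-fold for Mcm4 to 14.1-fold for Mcm5 in the wildtype library. Ezh2, the histone methylase of the Polycomb complex, stood at 316 against 97.4 CPM and 428 against 108 CPM. The 4 others, Dnmt1, Tipin, Rfc4 and Gins2, were under 2-fold in at least 1 library. Gins2 was 2.05-fold higher in the Aplp1 KO library and stood at 0.80-fold in the wildtype library. Among cells with 500 or more counts, 11 of 23 genes of this list were 2-fold or more higher in both, beside 4.71% of all genes.

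Mitotic genes stood higher as well. Of 33 G2/M genes outside the rule, 30 were 2-fold or more higher in both libraries and 0 lower, beside 5.26% and 15.1% of all genes. Their median log2 ratio was 1.80 in the Aplp1 KO library and 2.49 in the wildtype library. Cenpa, the histone of the centromere, stood at 334 against 107 CPM in the Aplp1 KO library and 350 against 45.4 CPM in the wildtype library. Smc4, of the condensin complex that compacts chromosomes, stood at 1089 against 314 CPM and 995 against 268 CPM. Ccnb1, the cyclin of mitotic entry, stood at 262 against 60.6 CPM and 156 against 33.3 CPM. The exceptions were Mad2l1 at 1.06-fold in the Aplp1 KO library and 5.37-fold in the wildtype library, Hmgb1 at 1.90-fold and 2.36-fold, and Pttg1, which had 4 counts in Aplp1 KO and 0 counts in wildtype cycling cells. Hmgb1 held the most counts of this list in cycling cells, so it weighs on the summed G2/M levels given in this text. Among cells with 500 or more counts, 23 of 32 were 2-fold or more higher in both, beside 4.71% of all genes in that comparison. Without the cells above the 95th percentile of counts, where doublets would gather, 24 of 26 were, beside 8.55% of all genes.

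Free RNA can give counts of abundant genes to any droplet. The share of cells with a count of an S phase or G2/M gene outside the rule is given here for that reason. After each cell was thinned to 300 counts, 93.8% of Aplp1 KO (256 cells) and 94.1% of wildtype cycling cells (186 cells) held such a count, against 46.2% and 41.0% of all other cells. The unthinned shares were 97.2% and 98.5%, against 52.5% and 42.5%. Cells with 5 or more counts of microglia genes, of which 22 and 16 were deep enough, gave 27.3% (10.7 to 50.2) and 18.8% (4.05 to 45.6); their median depth was 358 and 379 counts. The cycling cells stood above that level in each library, but they were chosen for their cycle counts. Hmgb1, the G2/M gene with the most counts in cycling cells, is among the genes counted. The part of free RNA in these values was not tested.

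Chromatin genes of dividing cells were also higher than in all other cells together. Of 23 compared, 14 were 2-fold or more higher in both libraries and 0 lower, beside the 5.26% of all genes called higher, with median log2 ratios of 1.16 and 1.33. The unclassed cells met neither this rule nor the lineage rules described further on. Against them 0 of 23 were past 2-fold either way, beside 2.85% of all genes higher and 5.21% lower. The medians were 0.78 and 0.61. H2afz, the H2A.Z histone variant, stood at 1024 against 374 CPM in the Aplp1 KO library and 1047 against 282 CPM in the wildtype library. H2afx, the variant marked at DNA breaks, was 6.45-fold and 2.38-fold higher, Hmgn2, a nucleosome binder, 2.49-fold and 2.78-fold, and Cbx3, a heterochromatin protein, 2.16-fold and 2.23-fold. Among cells with 500 or more counts 7 of 23 were 2-fold or more higher in both, beside 4.71% of all genes. Splicing factors had 6 of 33 genes higher (Hnrnpab, Hnrnpa1, Hnrnpa3, Sfpq, Snrpb and Hnrnpu) and 1 lower, Srsf5, at 0.39-fold and 0.38-fold, beside 5.26% and 15.1% of all genes. Against the unclassed cells 0 of 31 were past 2-fold either way, beside the same 2.85% and 5.21% of all genes, which is few calls in a list of this size.

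Most regulators of the cycle that were compared did not differ by 2-fold in both libraries. Of 9 E2F and DREAM regulators, 2 were 2-fold or more higher in both, beside 5.26% of all genes, and 0 were lower, beside 15.1%. Mybl1, a MYB factor, stood at 200 against 54.6 CPM in the Aplp1 KO library and 277 against 36.6 CPM in the wildtype library, and Tfdp1, the partner of E2F proteins, was 3.53-fold and 2.38-fold higher. The pocket protein genes Rb1 and Rbl2, which hold E2F in check, stood at 0.89-fold and 0.63-fold for Rb1 and at 0.32-fold and 0.76-fold for Rbl2. Of 9 kinase inhibitors and antiproliferative genes, Cdkn2c was the one 2-fold or more higher in both, beside the same 5.26%, and 0 were lower. Cdkn1b, which encodes p27, stood at 2010 against 1436 CPM and 2060 against 1301 CPM, ratios of 1.40 and 1.58. Btg2, an antiproliferative gene of neurogenic divisions, stood at 417 against 1258 CPM in the Aplp1 KO library and 515 against 940 CPM in the wildtype library.

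**Figure D3:**
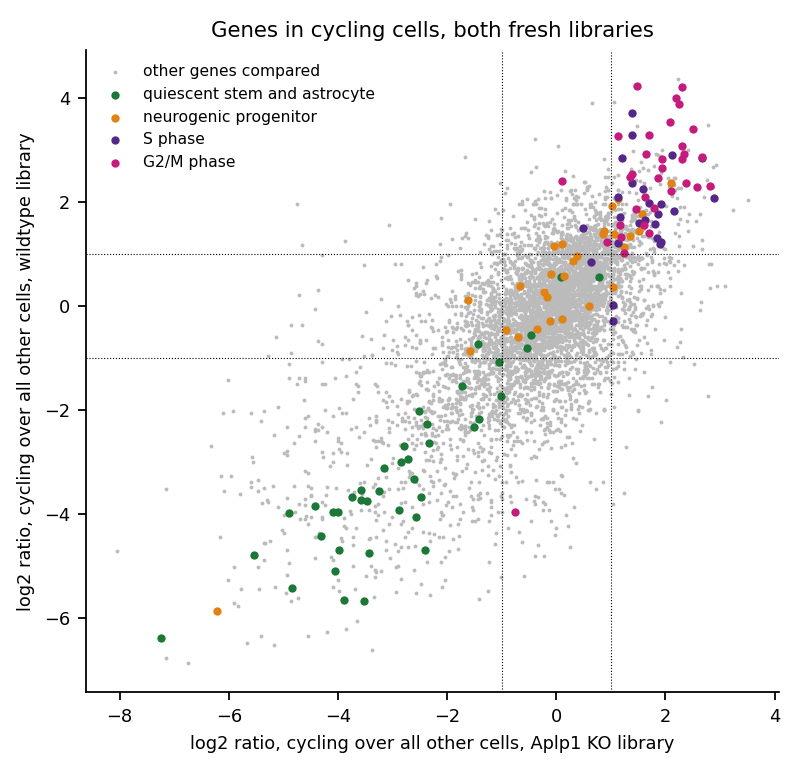
Log2 ratio of summed CPM, cycling over all other fresh cells, for each of 5589 genes in the Aplp1 KO library (horizontal) and the wildtype library (vertical); dotted lines mark 2-fold. S phase and G2/M genes lie mostly in the upper right and quiescent stem and astrocyte genes mostly in the lower left. Neurogenic progenitor genes lie on both sides of the centre. Btg2 is among those to the lower left, and Rgcc alone of them is 2-fold or more lower in both libraries.

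Genes of neurogenic progenitors differed among themselves. Of 29 neurogenic progenitor genes compared, 8 were 2-fold or more higher in both libraries (Insm1, Cdk6, Hes6, Mycn, Cdk4, Dll1, Dlx1 and Dlx2), beside 5.26% of all genes. A single one, Rgcc, was lower, beside 15.1% of all genes. The median log2 ratio of the list was 0.13 in the Aplp1 KO library and 0.62 in the wildtype library. Insm1, a zinc-finger factor of dividing neurogenic progenitors, stood at 337 against 78.4 CPM in the Aplp1 KO library and 446 against 86.5 CPM in the wildtype library, ratios of 4.30 and 5.15. Cdk6, the G1 kinase, stood at 5297 against 1786 CPM and 4652 against 1366 CPM. Egfr, the receptor of the mitogen EGF, stood at 259 against 200 CPM and 355 against 183 CPM. Among cells with 500 or more counts 3 of 27 genes were 2-fold or more higher in both (Cdk4, Cdk6 and Insm1), beside 4.71% of all genes. In that comparison 2 were lower (Btg2 and Rgcc), beside 10.4% of all genes.

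The other fresh cells are themselves mixed, so levels were set beside cells chosen by the same rule turned to the astrocyte genes (986 Aplp1 KO and 1457 wildtype cells), to the neuroblast genes (192 and 185 cells), and beside the cells that met no rule (419 and 371 cells). Cdk6 was highest in cycling cells; the unclassed cells followed at 3760 and 3485 CPM, and neuroblast-rule cells held 1357 and 621 CPM. Dlx2, a homeobox factor of interneuron progenitors, stood at 659 and 545 CPM in cycling cells, against 1060 and 716 CPM in neuroblast-rule cells and 49.7 and 19.3 CPM in astrocyte-rule cells. Between cycling and neuroblast-rule cells Egfr ran the other way, at 259 and 355 CPM against 27.0 and 8.63 CPM. Astrocyte-rule cells held 197 and 204 CPM of Egfr. Unclassed cells stood above cycling cells for Egfr in the Aplp1 KO library and below them in the wildtype library. Sox4, a factor of new neurons, stood at 2401 and 3232 CPM in cycling cells, against 8019 and 10726 CPM in neuroblast-rule cells and 866 and 780 CPM in astrocyte-rule cells. Ccnd2, the cyclin D of this lineage, was about as high in neuroblast-rule cells, at 4536 and 5074 CPM, as in cycling cells, at 3749 and 3998 CPM.

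**Figure D4:**
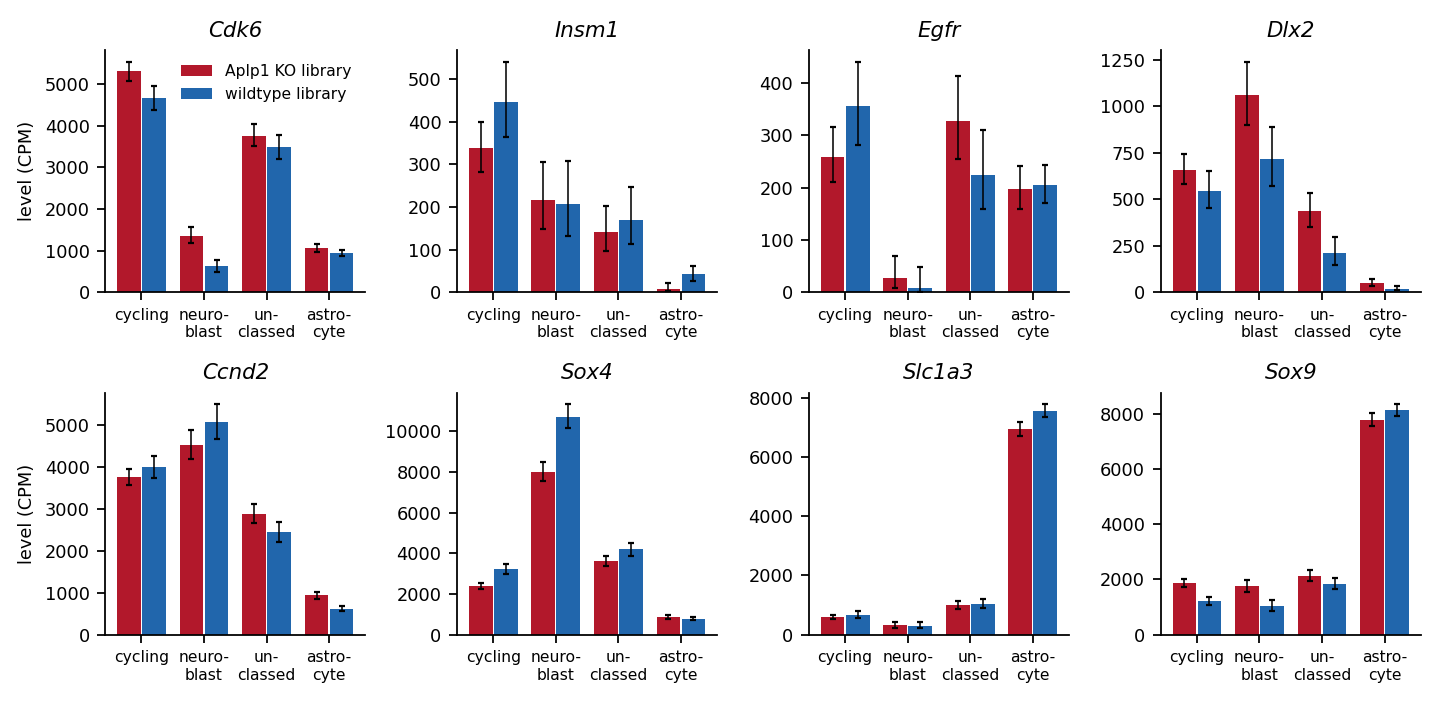
Level in CPM of 8 genes outside the rule in cycling cells, neuroblast-rule cells, unclassed cells and astrocyte-rule cells, with the Aplp1 KO library left of the wildtype library in each pair and bars for the exact 95% Poisson interval. Cdk6 and Insm1 are highest in cycling cells, Dlx2, Ccnd2 and Sox4 in neuroblast-rule cells, and Slc1a3 and Sox9 in astrocyte-rule cells; Egfr is lowest in neuroblast-rule cells.

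Against neuroblast-rule cells alone, 207 of 2208 genes (9.38%) were 2-fold or more higher in cycling cells in both libraries and 121 (5.48%) lower. Of 22 progenitor genes 7 were higher there, among them Btg2, Cdk6, Egfr, Fabp7, Hes6 and Mycn, and 4 lower (Dlx6, Igfbpl1, Meis2 and Sox4). Of 19 neuroblast genes outside the rule 13 were lower and 0 higher; Map1b, a microtubule protein of growing axons, stood at 612 and 775 CPM in cycling cells, against 3253 and 4409 CPM in neuroblast-rule cells. S phase genes were higher in 8 of 15 and G2/M genes in 10 of 29, and the neuroblast-rule cells held G2/M counts of their own, at 6142 and 3633 CPM, against 10434 and 9182 CPM in cycling cells. Of 20 quiescent stem and astrocyte genes 5 were also higher in cycling than in neuroblast-rule cells (Hes5, Mt2, Notch1, Notch2 and Ptprz1), and 1, Id4, was lower.

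Against the unclassed cells alone, 75 of 2628 genes (2.85%) were 2-fold or more higher in cycling cells in both libraries and 137 (5.21%) lower. Of these comparisons, 21 of 30 G2/M genes and 6 of 18 S phase genes were higher, while 1 of 23 progenitor genes, Insm1, was higher and 1, Btg2, lower. The progenitor list summed to 20189 and 20415 CPM in cycling cells, against 18948 and 19167 CPM in unclassed cells, 23901 and 26930 CPM in neuroblast-rule cells and 10218 and 9037 CPM in astrocyte-rule cells.

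Genes of quiescent stem cells and astrocytes stood far lower in the cycling cells. Of 40 compared outside the rule, 35 were 2-fold or more lower in both libraries and 0 higher, beside the 15.1% of all genes called lower, with median log2 ratios of -2.87 and -3.62. Slc1a3, the glutamate transporter GLAST, stood at 594 against 4286 CPM in the Aplp1 KO library and 675 against 5445 CPM in the wildtype library. Cst3, which encodes the protease inhibitor cystatin C, stood at 695 against 6609 CPM and 584 against 6936 CPM, and Id2, an inhibitor of helix-loop-helix factors, at 130 against 2608 CPM and 113 against 2451 CPM. Sox9, a factor of stem cells and astrocytes, was lower by less, at 1864 against 5310 CPM and 1212 against 6067 CPM. Hes5, a Notch target, and Notch1 itself were not lower: Hes5 stood at 1112 against 645 CPM and 714 against 482 CPM, and Notch1 at 322 against 304 CPM and 489 against 331 CPM. The rule put an upper limit on 6 other astrocyte genes in each member, which bears on this list. Against the unclassed cells, 6 of 23 were 2-fold or more lower in both, beside 5.21% of all genes.

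The lowest ratios common to both libraries belonged to 12 genes, and 11 of them had 0 counts in cycling cells of both libraries. Mgll, the lipase that degrades the endocannabinoid 2-arachidonoylglycerol, had 155 counts in other Aplp1 KO cells and 212 in other wildtype cells, so it was at least 23.7-fold and 18.1-fold lower in cycling cells, taking 3 counts per class and library as the floor. Gjb6, the astrocyte gap junction protein connexin 30, was at least 25.2-fold and 13.8-fold lower, and Tmem100 at least 17.9-fold and 19.5-fold. Rgcc, a regulator of the cell cycle, Slc39a12, a zinc transporter, Grin2c, an NMDA receptor subunit, Gpc5, a glypican, Ramp1, a receptor partner, Crim1, which binds BMPs, Chst1 and Clmn made up the rest with 0 counts. Ntm, a neuronal adhesion protein, had 1 count in Aplp1 KO and 0 in wildtype cycling cells, against 117 and 180 counts in other cells. Of the counts in other cells, astrocyte-rule cells held 140 and 207 for Mgll, 108 and 223 for Tmem100, and 159 and 155 for Gjb6. Neuroblast-rule cells were also near 0, with 1 and 2 counts of Mgll, 0 and 0 of Tmem100, and 0 and 1 of Gjb6. The 12 genes were chosen for their difference between cycling and other cells.

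Markers of other cell types were low in the cycling cells. Microglia genes summed to 80.4 CPM in Aplp1 KO and 26.0 CPM in wildtype cycling cells, against 766 and 349 CPM in other cells. That level lay mostly in the unclassed cells, at 2800 and 1579 CPM. Astrocyte-rule cells, at 95.3 and 86.9 CPM, and neuroblast-rule cells, at 47.2 and 8.63 CPM, were low as well. Of 16 microglia genes measured, 4, among them Trem2 and C1qa, were at 0 in cycling cells of both libraries. All 8 ependymal genes measured, among them Foxj1, were at 0, and so were 9 of 12 endothelial genes. Oligodendrocyte lineage genes summed to 77.8 and 82.2 CPM, against 257 and 453 CPM, with Sox10 at 0, and pericyte genes to 7.78 and 0 CPM. Mature neuron genes summed to 270 and 164 CPM, against 591 and 438 CPM. Astrocyte-rule cells held less of them, at 112 and 122 CPM, and neuroblast-rule cells more, at 715 and 1044 CPM.

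Metabolic and housekeeping lists stood nearer to the rest. Of 26 oxidative phosphorylation genes 0 were 2-fold or more higher in both libraries and 1, Ndufb10, lower, beside 5.26% and 15.1% of all genes. Their median log2 ratios were -0.09 and -0.25. Proteasome genes gave 0 of 19 either way, beside the same shares, with medians of 0.19 and 0.40. Ribosomal protein genes had medians of 0.63 and 0.55, with 2 of 21 higher (Rps25 and Rpl22) and 0 lower, beside the same shares. Glycolysis differed, with 5 of 9 genes 2-fold or more lower (Pfkm, Aldoa, Tpi1, Ldhb and Gpi1) and 0 higher, beside 15.1% of all genes lower. Aldoa, the aldolase of muscle and other tissues, stood at 31.1 against 162 CPM and 21.6 against 228 CPM. Against the unclassed cells 2 of 5 glycolysis genes, Aldoa and Gpi1, were lower, beside 5.21% of all genes. Against neuroblast-rule cells 0 of 3 were lower, beside 5.48%. The glycolysis list summed to 327 and 480 CPM in cycling cells and 317 and 362 CPM in neuroblast-rule cells. Unclassed cells held 752 and 644 CPM of it and astrocyte-rule cells 1053 and 1165 CPM.

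Among 17 early response and stress genes, 6 were 2-fold or more lower (Zfp36, Atf3, Klf4, Junb, Fosb and Dusp1) and 1, Hsp90aa1, was higher, beside 15.1% and 5.26% of all genes. Egr1, a zinc-finger factor and the member with the most counts, stood the other way, under 2-fold, at 884 against 673 CPM in the Aplp1 KO library and 917 against 589 CPM in the wildtype library. The list summed to 3093 and 3128 CPM in cycling cells, against 8694 and 8457 CPM in unclassed cells, 6902 and 3618 CPM in astrocyte-rule cells and 1397 and 1277 CPM in neuroblast-rule cells. Against the unclassed cells 10 of 14 were 2-fold or more lower, beside 5.21% of all genes. Fos itself stood at 537 against 1711 CPM of all other cells in the Aplp1 KO library and 545 against 974 CPM in the wildtype library. The part of cell handling in these values was not tested.

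Most genes of the APP and poly(A) tail lists did not differ by 2-fold in both libraries, while 3 CPEB genes did. Of 10 genes of the APP family and its processing, 3 were 2-fold or more lower in both libraries (Aplp1, Itm2c and Itm2b) and 0 higher, beside 15.1% of all genes lower. The median log2 ratios were -1.01 and -0.93. Aplp1 is the mutated gene, and in the Aplp1 KO library its call rests on 1 count in cycling cells against 53 in other cells. In the wildtype library it had 5 against 241 counts. Itm2b, a membrane protein that restrains amyloid precursor processing, stood at 231 against 875 CPM in the Aplp1 KO library and 247 against 957 CPM in the wildtype library. App stood at 36.3 against 95.01 CPM and 64.9 against 77.6 CPM. Adam10, a protease that cuts amyloid precursor protein, stood at 1.11-fold and 0.93-fold. Of 13 genes of CPEB proteins and poly(A) tail control, 3 were lower (Cpeb3, Cpeb1 and Cpeb4) and 0 higher, beside 15.1% of all genes lower. The medians of the list were -0.26 in the Aplp1 KO library and 0.35 in the wildtype library. Among cells with 500 or more counts 2 of 10 were lower (Cpeb3 and Cpeb4) and 1, Cnot2, was higher, beside 10.4% and 4.71% of all genes. Cpeb4, which binds the cytoplasmic polyadenylation element, stood at 57.0 against 208 CPM and 117 against 326 CPM, and Cnot6, a deadenylase, at 1.52-fold and 1.30-fold. Neither list had a gene past 2-fold against the unclassed cells, beside 2.85% of all genes higher and 5.21% lower. With 5 and 7 genes compared, 0 calls are near those shares.

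The cycling cells differed among themselves by phase. They were divided by their rule genes into cells with more counts of Pcna, Mcm6, Rrm2 and Pclaf, the S side, and cells with more of Top2a, Mki67, Ube2c and Hmgb2, the G2/M side. The G2/M side held 134 of 282 Aplp1 KO cells (47.5%, 41.6 to 53.5) and 72 of 196 wildtype cells (36.7%, 29.98 to 43.9), and the S side 125 (44.3%) and 104 (53.1%), with 23 and 20 ties. G2/M genes outside the rule summed to 12621 CPM on the G2/M side against 8450 CPM on the S side in the Aplp1 KO library, and to 12663 against 7220 CPM in the wildtype library. S phase genes ran the other way, at 2608 against 4126 CPM and 3018 against 4116 CPM. Median depth was close, at 1093 counts on the G2/M side against 1056 on the S side and 1014 against 964.5.

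Gene by gene, 32 of 41 G2/M genes were higher on the G2/M side in both libraries, beside 29.1% of all 3669 genes compared, and 0 were lower in both. Cenpa stood at 642 against 49.2 CPM in the Aplp1 KO library and 778 against 106 CPM in the wildtype library, ratios of 13.1 (6.65 to 29.3) and 7.36 (4.09 to 14.2). Prc1, which bundles midzone microtubules, stood at 1.96-fold and 8.03-fold, and Ccnb1 at 3.72-fold and 3.28-fold. Of 27 S phase genes 13 were lower on the G2/M side in both, beside 23.9% of all genes, and 2 were higher. Lig1, the ligase that seals replicated DNA, stood at 88.6 against 295 CPM and 59.0 against 211 CPM. Progenitor genes stood at 7 higher and 6 lower of 25. Dlx2 stood at 399 against 929 CPM (0.43-fold, 0.32 to 0.57) in the Aplp1 KO library and 436 against 657 CPM (0.66-fold, 0.44 to 0.99) in the wildtype library, and Cdk6 at 0.80-fold and 0.78-fold.

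**Figure D5:**
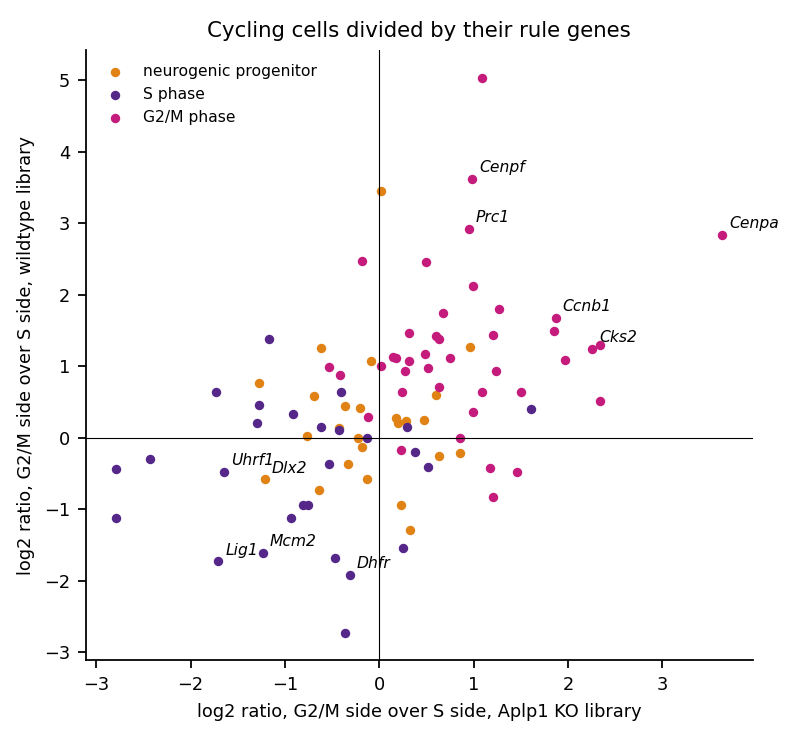
Log2 ratio of CPM, cells on the G2/M side over cells on the S side, for genes outside the rule with 20 or more counts over the divided cells, in the Aplp1 KO library (horizontal) and the wildtype library (vertical). G2/M genes gather to the upper right, with Cenpa farthest to the right, S phase genes lie mostly to the left, and neurogenic progenitor genes scatter around the origin.

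Cycling cells made up a larger part of the Aplp1 KO library than of the wildtype library, while the mice of the genotypes overlapped. The share was 15.01% (13.4 to 16.7) of the Aplp1 KO library and 8.87% (7.72 to 10.1) of the wildtype library. When cells were first thinned to 300 counts, which 1293 Aplp1 KO and 1355 wildtype cells were deep enough for, it was 10.8% (9.11 to 12.6) and 8.04% (6.65 to 9.62), and the intervals overlapped. Cells assigned to a mouse by 10 or more tag counts gave 0.862% (1 of 116 cells), 4.46% (7 of 157) and 6.77% (9 of 133) for the 3 Aplp1 KO mice, against 4.88% (4 of 82), 4.23% (6 of 142) and 2.93% (7 of 239) for the 3 wildtype mice. The Aplp1 KO mice both underran and overran the wildtype range. Their mean was 4.03% ± 2.98, against 4.01% ± 0.992 in wildtype mice (SD, n = 3 each), a difference of 0.018 percentage points with p = 1.0 in a two-sided exact permutation test whose smallest possible p is 0.1. Without the Aplp1 KO mouse of tag 2, which held Aplp1 counts, the difference was -0.196 percentage points (p = 1.0, exact permutation test).

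The mouse values rest on few cycling cells, and tags were sparser on them than on other cells. A mouse was assigned for 6.03% of Aplp1 KO and 8.67% of wildtype cycling cells, against 24.4% and 22.2% of all other cells. Median tag counts were 3 and 4 per cycling cell, against 5 and 6 per other cell, although cycling cells held more RNA counts. Lowering the minimum to 3 tag counts gave 2.86%, 8.89% and 13.4% for the Aplp1 KO mice, against 8.19%, 3.57% and 3.76% for the wildtype mice, and the groups again overlapped.

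Within the cycling cells, the Aplp1 KO and wildtype libraries differed little in the summed levels of cycle genes. S phase genes summed to 3477 CPM in Aplp1 KO and 3726 CPM in wildtype cells, a ratio of 0.93 (0.86 to 1.02), and progenitor genes to 20189 and 20415 CPM, a ratio of 0.99 (0.95 to 1.03). G2/M genes stood at 10434 and 9182 CPM, a ratio of 1.14 (1.08 to 1.20), and in other cells at 3508 and 2412 CPM, a ratio of 1.45 (1.38 to 1.54). Neuroblast genes stood at 3519 and 4418 CPM, a ratio of 0.80 (0.73 to 0.86), while in other cells they were higher in the Aplp1 KO library, at 4559 against 3578 CPM. Immediate early genes stood at 3093 and 3128 CPM in cycling cells, a ratio of 0.99, and at 6383 and 4201 CPM in other cells, a ratio of 1.52. Intervals cover counts alone, and cells of a library are not replicates.

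Per gene, 3878 genes had 20 or more counts over the cycling cells of both libraries. Of these 428 (11.0%) were 2-fold or more higher and 350 (9.03%) 2-fold or more lower in the Aplp1 KO library. The balance moved with the processing, to 501 higher and 274 lower with TMM factors, and to 300 higher and 334 lower with a pseudocount of 2 counts. Lists held few of them: 1 of 28 S phase genes was higher and 0 lower, and 3 of 41 G2/M genes were higher and 1 lower. The largest ratios rested on few cells. Scn2b, a sodium channel subunit, had 45 counts in Aplp1 KO and 2 in wildtype cycling cells, and 36 of the 45 came from 1 cell. Rnf167, a ubiquitin ligase, had 2 counts in Aplp1 KO and 58 in wildtype cycling cells, the 58 from 14 cells, while in other cells its ratio was 0.89 (0.65 to 1.21). Nolc1, a nucleolar protein, had 49 counts from 15 cells in Aplp1 KO and 3 counts in wildtype cycling cells, with 1.61 (0.73 to 3.66) in other cells. The 17 cycling cells per genotype with a mouse give a thin check: the 9 Nolc1 counts of Aplp1 KO mice all came from the mouse of tag 3, wildtype mice had 0, and Rnf167 had 0 counts in every mouse.

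The cultured cells, which the rule did not use, gave a separate view of the same genes. Of the 20 named genes highest in cycling cells, 18 were 2-fold or more higher with EGF than with BMP4 and 0 lower, with a median log2 ratio of 2.97, beside 12.0% of 5341 genes measured in both settings. Uhrf1 stood at 67.1 CPM with EGF and 5.08 CPM with BMP4, Plk1 at 21.7 and 1.44 CPM, and Rtkn2 at 21.9 and 0.866 CPM. The exceptions were Cdkn2c, at 141 CPM with EGF and 75.4 CPM with BMP4 (1.87-fold), and Cmc2, at 139 and 110 CPM (1.26-fold). Over all genes 2-fold or more higher in fresh cycling cells, 166 of 285 (58.2%) were higher with EGF and 9 lower. Over all genes 2-fold or more lower in fresh cycling cells, 411 of 800 (51.4%) were 2-fold or more lower with EGF than with BMP4, beside 18.3% of all genes. Of the 12 named lower genes 7 were lower with EGF, Gjb6 and Tmem100 among them, and 1, Grin2c, was 2-fold or more higher (2.90-fold). Each culture is 1 library, so no test was made.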

How the data were processed

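The files deposited by the authors hold raw counts per gene and cell for each fresh and cultured library, and counts of the hash tags per cell. Per the submitters' processing notes, Bowtie2, SAMtools and Cell Ranger were used with build mm10; the labels do not say if a count is a read or a molecule. Doublets and free RNA were not removed here. No cell was filtered.

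Counts were summed per library and class of cells and given as CPM, counts per 1000000 counts of that class. A gene was compared when it had 20 or more counts in each library, outside the 18 genes of the rule, and called at 2-fold in the same direction in both libraries; log2 ratios used a pseudocount of 0.5 counts. Intervals are exact (Poisson for levels, Clopper-Pearson for ratios and shares, 95%). Cells with at least 10 tag counts were assigned to the mouse whose tag made up at least 75% of them, and shares per mouse were compared by an exact two-sided permutation test. For thinned values 300 counts were drawn per cell (seed 11). The ratio and call steps were tested on simulated data.

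Members and gene lists were chosen with earlier results of these data known. Named genes were the 20 highest (40 or more counts over cycling cells) and 12 lowest (100 or more counts over other cells) by the log2 ratio nearer to 0, the 5 largest ratios each way between genotypes, and the 3 members of each list with the most counts; other list members were named after their values were seen. Python 3.11.15, NumPy 2.4.6, pandas 2.3.3, SciPy 1.17.1 and Matplotlib 3.10.9 were used. The neurosphere immunoprecipitation samples were not used here. A member of the progenitor list is not reported here by name.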

Additional observations from a re-analysis of the deposited data

How the results depend on the processing

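The share of cycling cells moved with the rule. It was 12.6% in the Aplp1 KO library and 7.42% in the wildtype library with 3 or more counts required, 19.9% and 12.6% with no lineage condition, 12.2% and 7.56% without Hmgb2, and 10.8% in the Aplp1 KO library after thinning. Chosen after seeing the data, leaving out cells above the 95th percentile of counts gave 12.3% and 6.86%, and only cells with 500 or more counts gave 30.5% and 23.7%. Genes 2-fold or more higher and lower in cycling cells numbered 760 and 1788 with no filter on low counts and 187 and 413 with 500 or more counts per cell. The higher genes numbered 469 by the mean of cell shares, and the lower genes 419 after thinning, where fewer genes were compared. Between Aplp1 KO and wildtype cycling cells 1897 genes were higher and 2156 lower with no filter, and 233 were lower without cells above the 95th percentile. Of the alternative ratios of named genes, 716 stayed within counting error and 52 moved between cycling and other cells, and 95 stayed and 3 moved between genotypes; Scn2b turned to -0.28 (log2) with 3 or more counts. Without the cells of Aplp1 KO tag 2, genes higher and lower in cycling cells numbered 281 and 799, and without the barcodes found in both libraries 293 and 845. The causes were not tested.

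The difference in share between Aplp1 KO and wildtype mice changed sign, to -0.988 points with 20 tag counts, -1.52 points with 90% of one tag and -0.923 points with 3 or more cycle counts; it was 3.20 points with 3 tag counts (exact permutation p = 0.6). Leaving out 1 mouse at a time, it ran between -1.35 points without Aplp1 KO mouse 3 and 1.60 points without Aplp1 KO mouse 1. With the tag number as a replicate block it was 0.018 points (exact permutation p = 1.0); the numbers name antibodies and pair no mice. Depth limits each of these values, since 17 cycling cells per genotype had a mouse.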
